A study of Mus musculus with 4 samples.

Results

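The transcripts described here are those of NADH dehydrogenase (complex I) and of the mitochondrial genome in transformed mouse blood progenitor cells. Genes were taken by name, as all rows named Ndufa, Ndufb, Ndufc, Ndufs or Ndufv and all protein-coding rows of the mitochondrial genome, with a summed expected count of at least 100 over 4 libraries. Of 64 names that matched, Ndufab1-ps and Ndufb1-ps were left out for their -ps names, and Ndufa11b, Ndufa4l2 and Ndufs6b fell under the count minimum. Ndufab1-ps is annotated as a processed pseudogene. Ndufb1-ps is annotated as a non-coding RNA from a bidirectional promoter and held 529 to 659 counts per library. Ndufb4c, a processed pseudogene by annotation, has no -ps in its name and was kept. These steps left 59 of the 55426 genes in the table: 38 nuclear subunit names, 8 assembly factors (Ndufaf names) and 13 mitochondrial mRNAs. The rule uses names and the summed count alone, and it was set with earlier results of these data known. All 59 also passed the filter on low counts.

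The cells were lineage-negative stem and progenitor cells of mouse bone marrow, transformed by a fusion of MLL to ENL and kept in culture, and their poly(A) RNA was sequenced. In 1 group the cells carried the MLL-ENL fusion (2 libraries), and in the other a fusion without the YEATS domain of ENL, labelled with ENL residues 372 to 559 (MLL-ENL dYEATS, 2 libraries). Libraries of a group are technical replicates in the series' own terms, so p-values measure only the spread between such libraries, and genotype and cell line cannot be told apart. Strain and sex of the mice and the number of lines per genotype were not given in the sources used here.

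Complex I takes electrons from NADH, passes them along a chain of flavin and iron-sulfur centres to ubiquinone, and pumps protons across the inner mitochondrial membrane. It is built from 2 genomes: the mitochondrial genome encodes the hydrophobic pump subunits (mt-Nd genes), and the nuclear genome encodes the electron-carrying core, many accessory subunits and the assembly factors. The other mitochondrial mRNAs encode cytochrome b of complex III, core subunits of complex IV and 2 subunits of ATP synthase.

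Totals were 27812855 to 28814798 expected counts per library. The 2 dYEATS libraries lay close together, with a chi-square per degree of freedom of 2.06 over genes, and the 2 MLL-ENL libraries lay far apart, with 97.9. Of 8 markers of the labelled cells all had counts, and the summed levels of erythroid, megakaryocyte, B-cell, T- and NK-cell and stromal markers were between 0 and 3.77 CPM (expected counts scaled to a common library size with TMM factors) in each library. Pax5, Cd3e and Hbb-bs were among those at 0. Fewer cells of a type and less RNA per cell cannot be told apart in such bulk samples. Xist, chosen after its values were seen, lay at 98.4 and 143 CPM with MLL-ENL and at 3.24 and 2.51 CPM with dYEATS, while the Y-linked genes Ddx3y, Uty and Eif2s3y were at 0 in all 4.

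Few of the complex I and mitochondrial genes differed between the groups. At an adjusted p under 0.05 (edgeR's quasi-likelihood test, Benjamini-Hochberg adjustment over all genes tested) 16.9% of 13245 genes were called, 932 higher (7.04%) and 1303 lower (9.84%) in dYEATS cells. Of the 38 nuclear subunit names 1 was higher (Ndufab1) and 1 lower (Ndufv3), which is 5.26%. Of the 8 assembly factors 1 was higher (Ndufaf4), and of the 13 mitochondrial mRNAs 1 was higher (mt-Nd3). The median log2 fold change, dYEATS minus MLL-ENL, was -0.14 over the nuclear subunits, 0.20 over the assembly factors and 0.29 over the mitochondrial mRNAs, beside -0.01 over all genes tested.

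Per length, the mitochondrial mRNAs were far more abundant than the nuclear ones. The median level of the 13 mitochondrial mRNAs was 1300 and 2310 FPKM (fragments scaled by transcript length and library size) with MLL-ENL and 2140 and 2180 FPKM with dYEATS. For the 38 nuclear subunits the medians were 103 and 81.3 FPKM against 87.4 and 85.7 FPKM, and for the 8 assembly factors 16.6 and 14.8 FPKM against 17.8 and 16.6 FPKM. MLL-ENL replicate 1 was thus the lowest library for the mitochondrial median and the highest for the nuclear one. Mean levels over the 4 libraries ran from 24.5 FPKM (Ndufs4) to 215 FPKM (Ndufb7) among nuclear subunits and from 7.88 FPKM (Ndufaf5) to 40.6 FPKM (Ndufaf8) among assembly factors. Among mitochondrial mRNAs mt-Co1, the catalytic subunit of complex IV, had a mean of 4920 FPKM. The FPKM of mt-Atp8 and mt-Nd4l rest on effective lengths of 7.9 and 47.9 bases and were not ranked.

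The balance of the 2 genomes was set against the groups library by library. The 13 mitochondrial mRNAs took 1.21% of all expected counts in MLL-ENL replicate 1 and 2.1% in replicate 2, against 1.96% and 2.03% with dYEATS. The 38 nuclear subunits took 0.212% and 0.174% with MLL-ENL against 0.184% and 0.188%. The ratio of mitochondrial to nuclear counts was therefore 5.68 and 12.0 with MLL-ENL against 10.7 and 10.8. In each of these measures the dYEATS libraries fell between the 2 MLL-ENL libraries, so the groups overlapped. The log2 difference between groups was 0.32 for the mitochondrial share, -0.05 for the nuclear share and 0.38 for the ratio, each with p = 1 in a two-sided exact permutation test, in which 2 against 2 libraries cannot go below 0.333. Without MLL-ENL replicate 1 these differences were -0.08, 0.09 and -0.17, and without replicate 2 they were 0.72, -0.19 and 0.92, so each changed sign with the library left out.

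**Figure D1:**
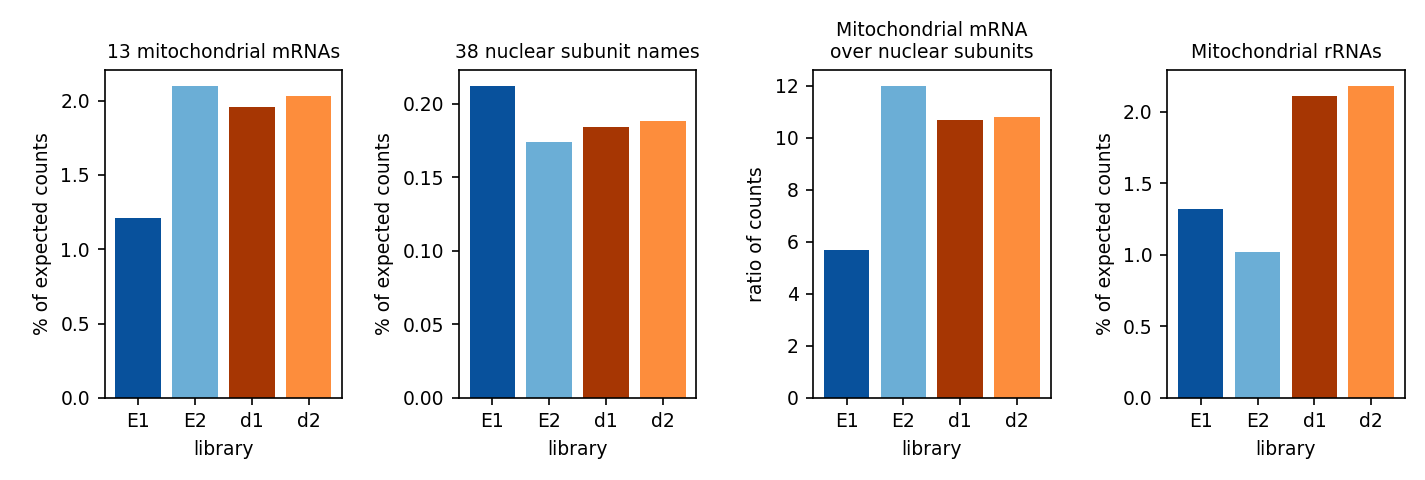
Share of expected counts in each library (E1 and E2, MLL-ENL replicates 1 and 2; d1 and d2, MLL-ENL dYEATS replicates 1 and 2) for 13 mitochondrial mRNAs, 38 nuclear subunit names and the mitochondrial rRNAs, with the ratio of mitochondrial mRNA to nuclear subunit counts; bars are single libraries. The ratio is 5.68 in E1 and 10.7 to 12.0 in the other libraries, while the rRNA share is lower in both MLL-ENL libraries.

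The distance between the MLL-ENL libraries was spread over most members. MLL-ENL replicate 1 was the highest of the 4 libraries for 30 of 38 nuclear subunits and the lowest for 9 of 13 mitochondrial mRNAs. The median log2 ratio of replicate 1 to replicate 2 was 0.35 over the nuclear subunits (35 of 38 above 0), 0.28 over the assembly factors and -0.75 over the mitochondrial mRNAs (10 of 13 below 0), beside -0.02 over all genes. In the dYEATS pair the same medians were -0.03, -0.03 and -0.05. Other nuclear lists moved like the subunits in the MLL-ENL pair, with medians of 0.37 (ATP synthase), 0.28 (mitochondrial ribosomal proteins) and 0.27 (complex IV). The median was 0.19 over complexes II and III and 0.13 over assembly factors outside the rule. It was -0.05 over genes for mitochondrial nucleic acids and -0.08 over regulators of nuclear mitochondrial genes. Ndufa2 (ratio 1.93), Ndufb7 (1.88) and Ndufs6 (1.75), named after their values were seen, were the nuclear subunits with the highest ratios in the MLL-ENL pair. Across the 38 nuclear subunits, which share these 2 libraries, the log2 ratio and the log2 effective length had a Pearson r of -0.20 and a Spearman rho of -0.23. Their median effective length was 428 bases, beside 2000 over all genes tested, so this relation covers mostly short genes. With a gene-length trend removed from the fit, their median log2 fold change between groups was -0.03, beside -0.14 in the main fit.

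**Figure D2:**
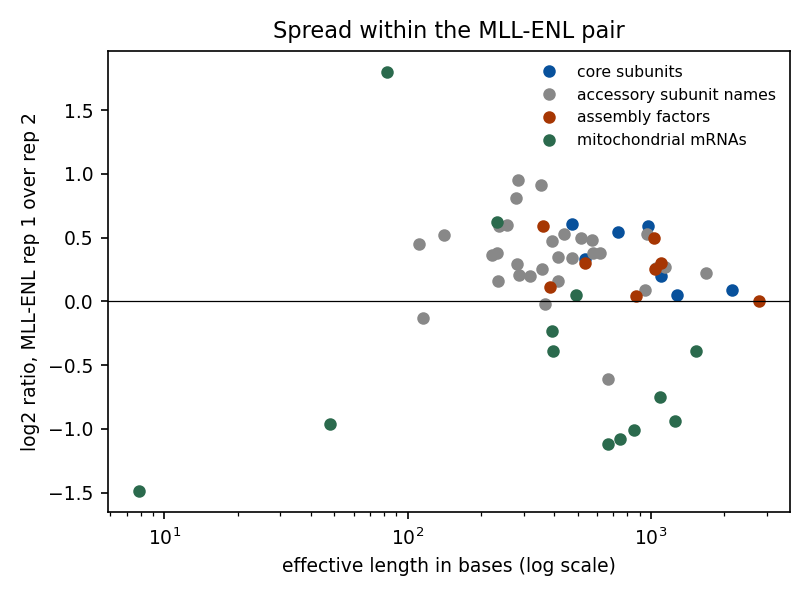
Log2 ratio of MLL-ENL replicate 1 to replicate 2 for each of the 59 genes against effective length in bases (log scale), coloured by class; each point is a gene. Most nuclear subunits lie above 0 (35 of 38) and most mitochondrial mRNAs below it (10 of 13), with mt-Nd3 the highest point at 1.80.

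Counts of called members turned on this pair. Without MLL-ENL replicate 1, 10 nuclear subunits were called higher and 2 lower, with a median log2 fold change of 0.09, where 54.7% of all genes were called (26.9% higher, 27.7% lower). Without MLL-ENL replicate 2, 5 were called higher and 27 lower, with a median of -0.30, where 66.5% of all genes were called (33.6% higher, 32.9% lower). For the mitochondrial mRNAs the same fits gave 1 higher and 6 lower without replicate 1 and 10 higher and 2 lower without replicate 2. The lone MLL-ENL library is assumed in these fits to vary like the dYEATS pair. CT010467.1, a ribosomal RNA gene, moved with the same library, taking 9.25% of counts there and 4.94%, 5.46% and 5.42% elsewhere. With it left out of the totals, the log2 difference between groups was 0.30 for the mitochondrial share and -0.08 for the nuclear share. Library sizes without it and the mitochondrial rows gave 2 called nuclear subunits, 1 assembly factor and 1 mitochondrial mRNA, beside 17.2% of all genes. Why it moved with this library was not tested.

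Of the mt-Nd genes, which encode the membrane arm, mt-Nd3 was the only one called. It lay at 26.8 and 7.72 CPM with MLL-ENL and at 115 and 132 CPM with dYEATS, without overlap. The log2 fold change was 2.84 (SE 0.56, adjusted p = 0.0253 by edgeR's quasi-likelihood test). However, mt-Nd3 (chromosome M, 9459 to 9806, GRCm38) has a near-identical nuclear copy in Gm28438, an unprocessed pseudogene on chromosome 1 (24612775 to 24613119, minus strand). Gm28438 went the other way, at 120 and 114 CPM with MLL-ENL and 4.73 and 2.09 CPM with dYEATS (log2 fold change -5.10, adjusted p = 0.00111 by the same test). The first 90 bases of both, 5′ to 3′ from the reference transcripts, are shown because the single base that separates them over 345 bases lies there. The capital marks that base, T3C, counted from the first base of mt-Nd3 (mt-Nd3 at chrM:9459-9548, plus strand, and Gm28438 at chr1:24613030-24613119, minus strand).
mt-Nd3: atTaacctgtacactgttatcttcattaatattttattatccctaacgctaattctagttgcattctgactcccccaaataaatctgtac
Gm28438: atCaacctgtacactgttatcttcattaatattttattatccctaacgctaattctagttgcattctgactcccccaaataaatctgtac

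The pair was then summed. Together mt-Nd3 and Gm28438 lay at 147 and 122 CPM with MLL-ENL and at 120 and 134 CPM with dYEATS, and the groups overlapped. The log2 fold change of the sum was -0.08 (SE 0.14, adjusted p = 0.72 by edgeR's quasi-likelihood test). The share of the sum assigned to mt-Nd3 was 18.3% and 6.32% with MLL-ENL and 96.1% and 98.4% with dYEATS. The groups thus stood far apart in how counts were divided between these 2 near-identical rows, and the summed level did not pass the test. The base that these cells carry at that position was not read here.

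**Figure D3:**
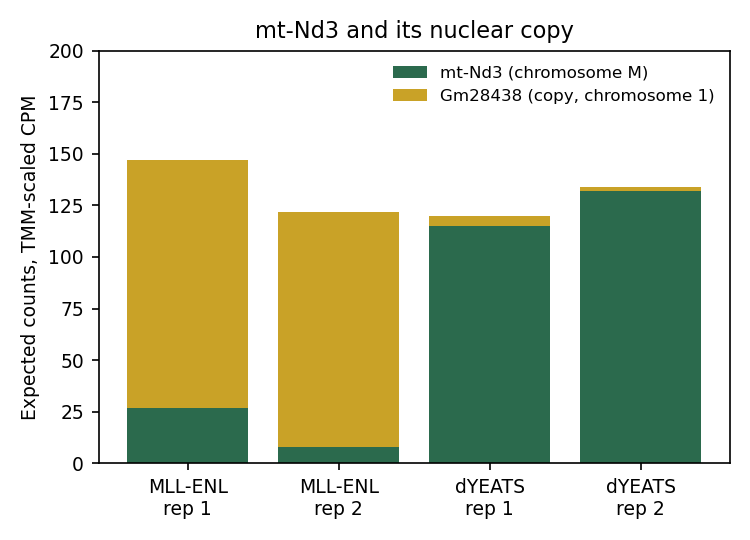
Stacked TMM-scaled CPM of mt-Nd3 and of its chromosome 1 copy Gm28438 in each library; each bar is 1 library. The stack is 120 to 147 CPM high in all 4 libraries, and mt-Nd3 makes up 6.32% and 18.3% of it with MLL-ENL and 96.1% and 98.4% with dYEATS.

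The same block of chromosome 1 holds copies of other mitochondrial mRNAs. No base differed over the aligned length between mt-Atp6 and Gm10925, mt-Co2 and Gm28661, mt-Co3 and Gm28437, mt-Nd4 and Gm28439, or mt-Nd4l and Gm10222, so the division of reads in these pairs is uncertain. Gm29216, which matches the end of mt-Co1, differed from it at 6 positions and lay at 119 CPM in MLL-ENL replicate 1 and at 13.2, 12.5 and 14.1 CPM in the others. When the 7 mitochondrial mRNAs with a copy in this block were summed with it and the others kept as they were, 0 of 13 were called. More distant copies elsewhere (Gm13339, Gm13340, Gm13341 and Gm4076), which had 5 to 603 counts per library, were not summed.

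The other mt-Nd mRNAs mostly followed the library pattern rather than the groups. mt-Nd1, the subunit next to the quinone site, lay at 1190, 2580, 2610 and 2630 CPM (MLL-ENL replicates 1 and 2, then dYEATS replicates 1 and 2). mt-Nd2, a pump subunit, lay at 805, 1700, 1570 and 1610 CPM, and mt-Nd4, another pump subunit, at 930, 1560, 1480 and 1540 CPM. In all 3 genes MLL-ENL replicate 1 stood low and the other libraries lay close together, and none passed the test (log2 fold changes 0.48, 0.34 and 0.28, SE 0.35, 0.34 and 0.25). mt-Nd5, the pump subunit at the far end of the membrane arm, had a narrower range, 2110 and 2780 CPM against 2330 and 2450 CPM (log2 fold change -0.03, SE 0.16). mt-Nd4l lay at 74.2 and 144 CPM against 144 and 147 CPM. mt-Nd6, the mRNA read from the opposite strand, ran the other way, with 966 CPM in MLL-ENL replicate 1 and 629, 553 and 583 CPM in the others (log2 fold change -0.49, SE 0.21, adjusted p = 0.181 by edgeR's quasi-likelihood test). Its annotation overlaps that of mt-Nd5, with the strand setting of the counting not given in the sources used here.

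Outside complex I the mitochondrial mRNAs showed the same spread. mt-Cytb, cytochrome b of complex III, lay at 1070 and 2160 CPM with MLL-ENL and at 2110 and 2160 CPM with dYEATS. mt-Co1 lay at 3790 and 7250 CPM against 6630 and 6870 CPM, and mt-Atp8 of ATP synthase at 44.0 and 123 CPM against 120 and 133 CPM. These again were low in MLL-ENL replicate 1 alone. As single rows mt-Co2, mt-Co3 and mt-Atp6 varied less, at 511 and 668, 760 and 732, and 374 and 440 CPM with MLL-ENL. With dYEATS they lay at 499 and 543, 601 and 695, and 429 and 430 CPM. Their division from the chromosome 1 copies is uncertain, as said above. Summed with its copy, mt-Atp6 lay at 1110 and 1750 against 1650 and 1750 CPM, low in MLL-ENL replicate 1. Summed mt-Co2 lay at 1200 and 1420 against 1320 and 1400 CPM, and summed mt-Co3 at 1550 and 1560 against 1340 and 1470 CPM. As single rows none of these 6 passed the test (log2 fold changes -0.20 to 0.60). The mitochondrial rRNAs, which lie outside the rule and were chosen after their values were seen, did not overlap between the groups: mt-Rnr2 lay at 9860 and 7620 CPM against 14900 and 15300 CPM (log2 fold change 0.79, SE 0.17, adjusted p = 0.032 by edgeR's quasi-likelihood test), and mt-Rnr1 at 3970 and 2470 CPM against 5810 and 6070 CPM (0.88, SE 0.24, adjusted p = 0.0632). The call of mt-Rnr2 was lost without either dYEATS library (adjusted p = 0.203 and 0.237), with a filter of 5 CPM (0.0848) and with limma on FPKM (0.0574 to 0.283), at log2 fold changes of 0.76 to 0.86. mt-Rnr1 was called by DESeq2 (adjusted p = 0.00047). It was also called by edgeR with the replicate number as a block (0.00024), with library totals only (0.0392) and with a gene-length trend removed (0.00956). It was not called by edgeR with no filter (0.0539), a filter of 5 CPM (0.0991), or RLE or upper-quartile scaling (0.0641 and 0.0762). Nor was it called by edgeR with library sizes without mitochondrial rows and CT010467.1 (0.0674), or by limma on FPKM (0.0678 to 0.248). The rRNA share of counts was 1.32% and 1.02% with MLL-ENL and 2.11% and 2.18% with dYEATS. The part of the poly(A) selection in these rRNA counts was not tested.

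**Figure D4:**
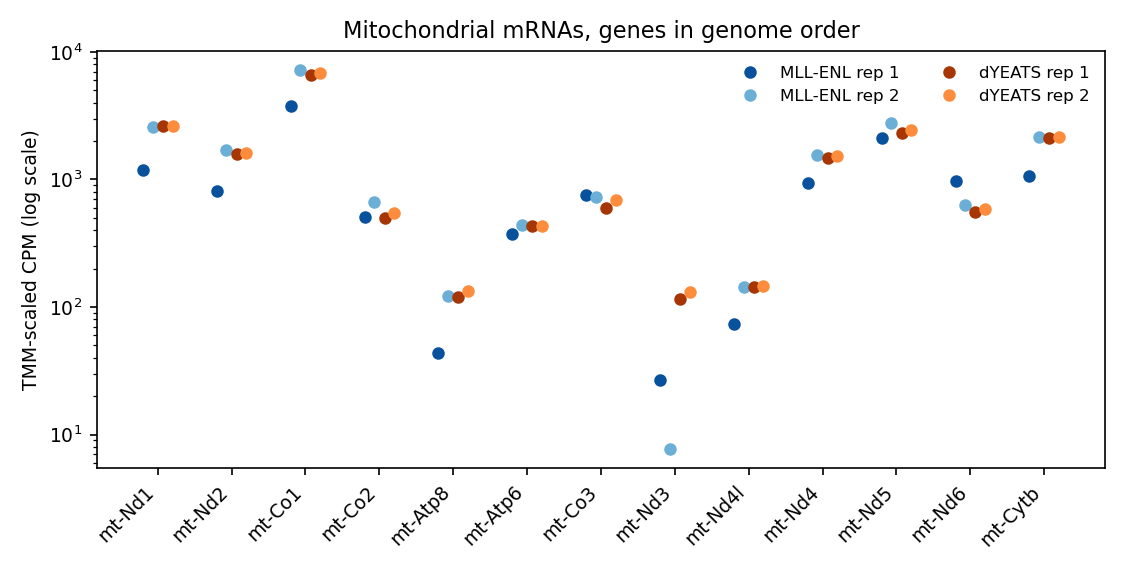
TMM-scaled CPM (log axis) of the 13 mitochondrial mRNAs in genome order; each point is 1 library. MLL-ENL replicate 1 is the lowest point for 9 of 13, and mt-Nd3 is the gene in which both MLL-ENL libraries stand far below the dYEATS libraries.

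Among the 7 nuclear core subunits, which carry the flavin and the iron-sulfur centres, none was called. Ndufs1, the largest iron-sulfur subunit, lay at 119 and 112 CPM with MLL-ENL and at 131 and 132 CPM with dYEATS (log2 fold change 0.18, SE 0.10), without overlap. Ndufv1, which binds the flavin and NADH, lay at 117 and 77.2 against 78.3 and 80.7 CPM (-0.28, SE 0.21). Here replicate 1 stood apart and the other 3 libraries lay together, as they did for Ndufs7 (62.1 and 40.8 against 44.2 and 44.9 CPM). Ndufs3, of the quinone-binding module, lay at 57.7 and 39.6 CPM against a dYEATS mean of 37.8 CPM (-0.36, SE 0.20). Without MLL-ENL replicate 1 the log2 fold changes were 0.04 for Ndufv1, -0.07 for Ndufs3 and 0.13 for Ndufs7. Without replicate 2 they were -0.55, -0.61 and -0.48. The iron-sulfur subunits Ndufs8 and Ndufv2 had log2 fold changes of -0.06 (SE 0.15) and -0.04 (SE 0.13).

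Of the 31 accessory subunit names, Ndufv3 was lower and Ndufab1 higher in dYEATS cells. Ndufv3, a small subunit of the NADH-binding module (chromosome 17, 31520115 to 31531331), lay at 117 and 84.2 CPM with MLL-ENL and at 58.2 and 60.9 CPM with dYEATS. Both dYEATS libraries lay below both MLL-ENL libraries, and the log2 fold change was -0.75 (SE 0.18, adjusted p = 0.044 by edgeR's quasi-likelihood test). It was not called by limma on log2(FPKM + 1), with a log2 fold change of -0.40 (adjusted p = 0.125). The effective length behind its FPKM went from 453 and 423 bases with MLL-ENL to 362 and 358 bases with dYEATS, and 3.09% of 10746 genes changed as much in effective length. The annotation holds protein-coding Ndufv3 transcripts of 493, 645 and 1582 bases and processed transcripts of 686 and 2021 bases. The longest exon of the one of 1582 bases has 1092 bases (chromosome 17, 31527310 to 31528401). Which transcripts were counted was not read here.

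Ndufab1, the mitochondrial acyl carrier protein that also serves fatty acid and lipoic acid synthesis, lies on chromosome 7 (122085403 to 122101886). It lay at 52.7 and 49.5 CPM with MLL-ENL and at 68.7 and 72.4 CPM with dYEATS, without overlap. The log2 fold change was 0.47 (SE 0.11, adjusted p = 0.044 by edgeR's quasi-likelihood test). Its pseudogene copies Gm4459 and Ndufab1-ps match it at 99.8% and 99.4% of 468 and 469 aligned bases, but held only 11 to 18 and 3 to 7 counts per library, beside 1392 to 2075 for Ndufab1. Antisense transcripts overlap Ndufab1 and Ndufs1, and without a known strand setting their reads cannot be told apart. Without dYEATS replicate 1 or 2 the log2 fold changes were 0.50 and 0.42 for Ndufab1, -0.73 and -0.79 for Ndufv3, and 0.48 and 0.52 for Ndufaf4. The calls were lost in these fits (adjusted p of 0.154 to 0.624 by edgeR's quasi-likelihood test), in which the spread comes from the MLL-ENL pair alone and 10.3% and 10.2% of all genes were called.

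The remaining accessory names did not pass the test. The 3 with the highest mean FPKM were Ndufb7, Ndufv3 and Ndufb4c. Ndufb7, on the intermembrane side of the membrane arm, lay at 120 CPM in MLL-ENL replicate 1 and at 63.8, 61.1 and 62.0 CPM in the other libraries (log2 fold change -0.58, SE 0.30, adjusted p = 0.241 by edgeR's quasi-likelihood test). Ndufb4c is a processed pseudogene identical to Ndufb4 over 390 bases. As single rows Ndufb4 and Ndufb4c had log2 fold changes of 0.53 (SE 0.22) and 0.34 (SE 0.12). Their adjusted p were 0.158 and 0.108 by edgeR's quasi-likelihood test. The pair was also summed, at 31.0 and 39.3 CPM with MLL-ENL against 46.5 and 48.2 CPM with dYEATS, without overlap, and this sum was not tested. The smallest changes were those of Ndufa4, since assigned to complex IV (60.0 and 52.3 against 53.5 and 58.6 CPM), of Ndufb8 (76.1 and 67.9 against 71.3 and 73.7 CPM) and of Ndufs5 (50.0 and 38.3 against 44.3 and 45.1 CPM). In these the groups overlapped. The X-linked subunits Ndufa1 and Ndufb11, named beside the Xist values, had log2 fold changes of -0.21 (SE 0.20) and -0.16 (SE 0.16) and were not called.

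**Figure D5:**
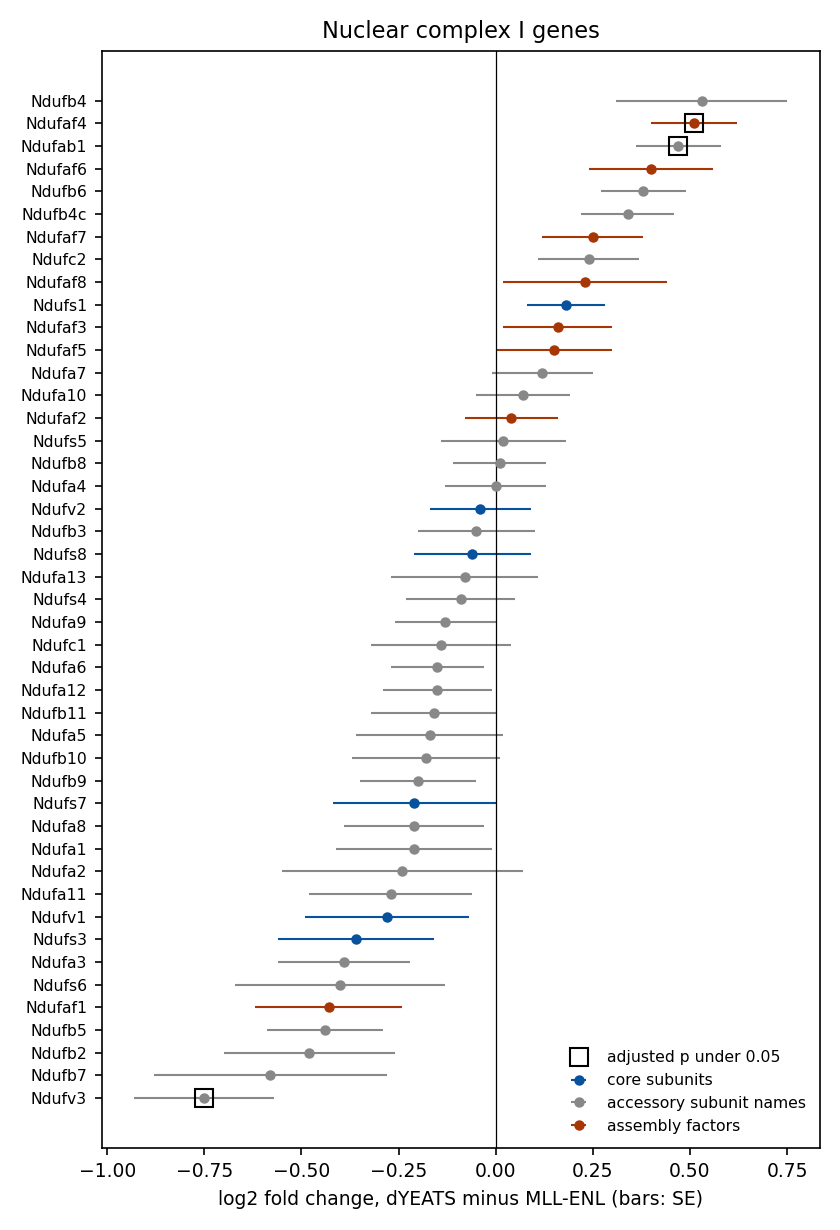
Log2 fold change (dYEATS minus MLL-ENL) with SE for nuclear complex I genes (1 core subunit is not plotted), ordered by size and coloured by class; squares mark genes at an adjusted p under 0.05. Squares stand on Ndufaf4 (0.51), Ndufab1 (0.47) and Ndufv3 (-0.75).

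Assembly factors join or modify the subunits and are not part of the finished complex. Ndufaf4, which acts early together with Ndufaf3, was the one called, at 26.3 and 26.2 CPM with MLL-ENL and 37.9 and 36.9 CPM with dYEATS (chromosome 4, 24898083 to 24905001). The log2 fold change was 0.51 (SE 0.11, adjusted p = 0.0319 by edgeR's quasi-likelihood test), and the groups did not overlap. Of the other 7, 6 had log2 fold changes above 0, from 0.04 (Ndufaf2) to 0.40 (Ndufaf6, SE 0.16), and Ndufaf1 had -0.43 (SE 0.19). None of these passed the test.

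The promoters of the nuclear genes were searched for motifs of factors known to act on mitochondrial genes, in the 250 bases before the start (RefSeq, GRCm38.p6, both strands, 40 of 46 genes matched). Shares over all genes refer to the 27025 genes with a promoter sequence in that set. The ETS motif CCGGAAG was in 5 of 40 (12.5%), beside 7.83% of all genes. The NRF-1 core GCGCATG was in 5 of 40 (12.5%), beside 3.68% of all genes: Ndufa11, Ndufa6, Ndufa8, Ndufaf4 and Ndufb6. In Ndufa11 and Ndufaf4 its matches on the 2 strands overlapped (2 of 40, 5.0%, beside 0.877% of all genes). The E-box CACGTG was in 2 of 40, Ndufa7 and Ndufv1, beside 6.86%. The ETS motif was in Ndufaf1, Ndufaf8, Ndufb6, Ndufb7 and Ndufs3. None of these was called, beside 16.9% of all genes tested, and 5 genes are too few to compare motifs by calls. The promoter of Ndufaf4 (chr4:24897833-24898082, plus strand) is shown because it is the only promoter among the 3 called nuclear genes with any of these motifs, with the overlapping NRF-1 matches in capitals. The motifs were chosen with the values of these genes known.
Ndufaf4: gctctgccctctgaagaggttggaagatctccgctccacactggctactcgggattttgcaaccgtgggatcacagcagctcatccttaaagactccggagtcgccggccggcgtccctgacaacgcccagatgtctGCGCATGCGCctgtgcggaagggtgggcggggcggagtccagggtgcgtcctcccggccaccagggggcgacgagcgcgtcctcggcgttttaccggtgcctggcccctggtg

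Genes that act beside complex I were counted by list. Of 12 other complex I assembly factors 1 was higher, Tmem70 (25.4 and 35.5 against 50.1 and 51.1 CPM). Of 13 subunits of complexes II and III 1 was higher, Uqcrfs1, the Rieske iron-sulfur protein (67.4 and 74.3 against 99.1 and 106 CPM). None of 11 nuclear complex IV genes and none of 18 nuclear ATP synthase genes was called, and the medians were -0.12 and -0.09. The 2 genes of lowest p in the complex IV list went opposite ways: Cox5b lay at 221 and 154 against 134 and 138 CPM and Cox7c at 61.3 and 64.2 against 75.6 and 76.0 CPM. In the ATP synthase list they were Atp5f1, at 175 and 200 against 250 and 254 CPM, and Atp5c1, at 143 and 164 against 186 and 191 CPM.

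Of 24 genes for the copying, transcription and handling of mitochondrial nucleic acids 3 were higher and none lower, with a median log2 fold change of 0.19. Polg2, the accessory subunit of the mitochondrial DNA polymerase, lay at 5.75 and 4.87 against 9.88 and 10.8 CPM (log2 fold change 0.96, SE 0.16, adjusted p = 0.0159 by edgeR's quasi-likelihood test). Fastkd5, which takes part in the maturation of mitochondrial mRNAs, lay at 19.1 and 17.7 against 27.6 and 27.6 CPM (0.58, SE 0.11, adjusted p = 0.0254). The other called gene was Ssbp1, the mitochondrial single-strand DNA-binding protein, named after its value was seen. In both genes with values the groups did not overlap. Without a dYEATS library the calls of Fastkd5 (adjusted p = 0.326 both times), Uqcrfs1 (0.369 and 0.535) and Tmem70 (0.141 and 0.17) were lost, as was that of Polg2 without replicate 2 (0.0966).

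Of 10 regulators of nuclear mitochondrial genes 1 was called, Ppargc1a, a coactivator of mitochondrial biogenesis. It was scarce, at 0.822 and 0.818 CPM with MLL-ENL and 0.17 and 0.105 CPM with dYEATS (log2 fold change -2.53, SE 0.40, adjusted p = 0.0129 by edgeR's quasi-likelihood test). It was not called by DESeq2 (adjusted p = 0.0519), without dYEATS replicate 2 (0.0617) or by limma on log2(FPKM + 1), where the log2 fold change was -0.11 (0.439). Its FPKM overlapped between the groups, at 0.15 and 0.22 against 0.04 and 0.16. Of 78 mitochondrial ribosomal protein genes 1 was higher, Mrpl53 (11.1 and 10.4 against 15.4 and 16.0 CPM), with a median over the list of -0.02. The call of Mrpl53 was lost without either dYEATS library (adjusted p = 0.379 and 0.449 by edgeR) and by DESeq2 (0.0858). The shares called in these lists were 0 to 12.5%, beside 16.9% of all genes in either direction. By direction, 12.5% of the genes for mitochondrial nucleic acids were higher, beside 7.04% of all genes, and 1 of the 10 regulators was lower, beside 9.84%.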

How the data were processed

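The authors deposited RSEM expected counts per gene (whole numbers) and FPKM for the same 55426 genes, which the authors scaled by length and depth. Per the submitters' processing notes, reads on GRCm38 involved STAR 2.7.8a, RSEM 1.3.3, cutadapt 2.3 and FastQC 0.11.8, with annotation release and strand setting not given in the sources used here. Positions came from GENCODE mouse release M21.

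Groups came from sample titles. Genes were filtered with filterByExpr, which left 13245, scaled by TMM and tested with glmQLFit (legacy) and glmQLFTest (edgeR 4.0.16, R 4.3.3). SE is the log2 fold change divided by the square root of F. The fit rests on 2 residual and 3.41 prior degrees of freedom. Copies were found with blastn (BLAST 2.17.0, at least 95% identity over 100 bases and 80% of a transcript). Effective length was recovered from counts, FPKM and totals. Alternatives included limma 3.58.1 on log2 FPKM and DESeq2 1.42.0. Same-numbered libraries deviated with a correlation of -0.0677 and share only a number.

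The genes and lists were chosen with earlier results of these data known. Named genes are the mitochondrial mRNAs, the core subunits, called members, the 3 most abundant and 3 least changed nuclear genes, and, for each list, at most 2 called genes per direction by size of change, or the 2 of lowest p where none was called. The values of 1 core subunit and of some marker genes are not reported here.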

Additional observations from a re-analysis of the deposited data

How the results depend on the processing

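Over 764 comparisons of 45 genes with alternatives, 658 kept direction and side of the threshold, 51 lost a call, 49 gained one and 6 turned sign with a call; 38 sign changes between uncalled values were counted as kept. The 2 called nuclear subunits became 1 with upper-quartile scaling, 1 with no filter and 0 with at least 5 CPM in 2 libraries or with limma on FPKM (pseudocounts 1 and 0.1, and no filter). The 1 called assembly factor became 0 with no filter and with these limma settings, and 2 with a gene-length trend removed. The 1 called mitochondrial mRNA became 0 by limma with no filter. Summing with nuclear copies, chosen after seeing the data, also gave 0, with mt-Nd3 at -0.08. All called genes, 2235, became 1350 with the 5 CPM filter, 1466 with limma and 674 with limma and no filter. With the median log2 CPM of the 13 rows in each library in place of their share, the difference of 0.32 was -0.25. The difference in the ratio, 0.38, was -0.14 when built from such medians. The median row was mt-Nd2 in MLL-ENL replicate 1 and mt-Co3 in the other libraries. Over members, the median log2 fold change was 0.29 in the main fit. Over all genes 17.2% were called with upper-quartile scaling, 9.44% with no filter, 13.9% with the 5 CPM filter, 11.1%, 11.4% and 3.09% with the limma settings, 24.3% with the length trend removed and 23.7% with the block. The cause of these changes was not tested.

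Leaving out each library in turn gave 0 to 32 subunits, 0 to 5 assembly factors, 1 to 12 mitochondrial mRNAs and 1392 to 9099 genes in all. The log2 fold changes ran from -0.10 to 0.98 for mt-Nd2, from -0.10 to 0.83 for mt-Co1, from -0.22 to 0.18 for mt-Nd5, from -0.16 to 0.22 for Ndufs5 and from -0.64 to 0.31 for Ndufa2 (named after its values were seen), with both ends called. With the replicate number as a block, 4 mitochondrial mRNAs (mt-Nd3, mt-Atp8, mt-Nd1 and mt-Nd4l) and 3133 genes in all were called. Of the nuclear subunits 3 were called with the block: Ndufv3, Ndufb7 (adjusted p = 0.0348 by edgeR) and Ndufb4 (0.0152), while Ndufab1 lost its call (0.0534). The chi-square per degree of freedom within pairs was 97.9 for MLL-ENL and 2.06 for dYEATS. No fit at a lower depth was run.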
